A study of Mus musculus with 1 sample.

Results

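The 8 genes described here, Myc, Mycn, Mycl, Max, Mxd3, Mxd4, Mxi1 and Mnt, encode factors of the Myc network. They were taken by gene symbol, as 8 of the 32285 genes of a single-cell RNA-seq library. The rule reads symbols and not levels, although the genes were picked with earlier results of these data known. The library, 1 in number, is WT_HSPC, made from lineage- cKit+ cells of the femora and tibiae of C57BL/6 mice, a sort for blood stem cells with their early progeny. The mice were controls with Brd9 fl/fl alleles and no Cre, so that Brd9 was not deleted, and they had been given pIpC, an inducer of interferon, at 20 mg/kg in 3 doses. Cells were prepared 8 weeks after the injections. The label of the sample also gives a CD45.2(+) donor and a CD45.1(+) CD45.2(-) recipient, with the injections timed from a transplant, whereas the series text describes mice injected at 4 weeks of age without a transplant, so whether the cells came through a transplant was not settled. Mx1-Cre;Brd9 fl/fl cells were not analysed here.

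Myc proteins bind DNA as pairs with Max, at the E-box motif and at many promoters of genes for ribosome assembly, nucleotide synthesis and growth. Mxd3, Mxd4, Mxi1 and Mnt also pair with Max and bind the same motif, but recruit Sin3 and histone deacetylases and repress, so that they are antagonists of Myc. In bone marrow, Myc is known for balancing self-renewal against differentiation of stem cells, and Mycn is known to be active in stem cells together with Myc.

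The library held 8817 barcodes and 167452386 unique molecular identifiers (UMIs, each standing for 1 captured transcript). The cell filter of the study left 7645 barcodes, and 7546 of them had at least 5000 UMIs, with a median of 18851 per cell. These cells were assigned to a gate by lists of marker genes that hold none of the 8 factors, which placed 6558 cells in gates and left 988 without one. The 8 gates of at least 50 cells were stem-like (684 cells), Flt3 lymphoid-primed-like (312), granulocyte-monocyte progenitor-like (1985), monocyte-like (853), dendritic-like (287), basophil or mast-like (442), megakaryocyte-like (698) and erythroid-like (1209). The genes that most set apart the stem-like gate were Procr, Cldn5 and Myof, with Hlf and the cell cycle inhibitor Cdkn1c also among its top 10. Procr and Hlf are markers that defined this gate, so their rank follows from the gating. The top 10 of the granulocyte-monocyte gate held 3 of its own markers and also S100a8, S100a9 and Cebpe, which mark later neutrophils. Markers of lineages that the sort should remove were rare, with 18 B lineage-like, 12 T or NK-like and 2 macrophage-like cells.

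To set quiescent against cycling cells, UMIs of 97 genes of the S and G2/M phases were summed in each cell after thinning to 5000 UMIs, and the cells were divided into tertiles. The low tertile had at most 38 such UMIs and the high tertile over 64. Of the cells, 288 lay within 1 UMI of the lower limit and 251 within 1 UMI of the upper. Cells of the low tertile made up 87.4% of the stem-like gate, whereas 77.8% of the erythroid-like gate was in the high tertile. Among cycle genes outside the 97, the tubulins Tubb5 and Tuba1b were 3.48-fold and 3.30-fold higher in the high than in the low tertile of the same gate, while Cdkn1a and Cdkn1c, which hold cells out of the cycle, were at ratios of 0.490 and 0.363. In all, 4 of the 8 genes of this list were higher by 1.5-fold and 2 lower, beside 7.54% of all genes higher and 9.63% lower. The cycle inhibitor Cdkn1b (1.005, 0.934 to 1.08) and Dut, of nucleotide supply in S phase (1.18, 1.15 to 1.22), were within 1.5-fold. A low score describes few cycle transcripts and is not a measure of dormancy.

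Levels are given as UMIs per 1000000 UMIs of a group of cells (CPM) with a 95% interval. Counting is at the 3′ end, where 1 transcript gives 1 UMI at most and length is not a factor. With 1 library there is no replicate, so no test was made, and every interval covers counting error only. A ratio is called different from 1 beyond counting error where its interval leaves out 1. Fewer transcripts per cell and larger totals of other transcripts cannot be told apart on this scale. UMIs per cell are therefore given beside some member ratios of stem-like cells and of cycle tertiles where they differ in direction. A ratio printed without them may also differ in direction when counted per cell.

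On GRCm38, Myc lies on the plus strand at chr15:61985391-61990374, Mycn on the minus strand at chr12:12936093-12941914 and Mycl on the plus strand at chr4:122995652-123002485. Max, at chr12:76937269-76962201 on the minus strand, overlaps the gene model Gm47218 on its own strand, so its count is less certain. The antagonists Mxd3 (chr13:55325168-55329823) and Mxd4 (chr5:34173883-34187720) are on minus strands, and Mxi1 (chr19:53310518-53375810) and Mnt (chr11:74830920-74845725) on plus strands. All 8 are annotated as protein coding.

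The promoters of 4 members are shown, Mycn and Mnt because both had their highest level in stem-like cells, and Mxd3 and Mxd4 because their levels moved in opposite directions with the cycle score. They are the 250 bases before the RefSeq start site on GRCm38.p6, written 5′ to 3′ on the strand of the gene, for Mycn (chr12:12941837-12942086, minus strand), Mxd4 (chr5:34187711-34187960, minus strand), Mnt (chr11:74830674-74830923, plus strand) and Mxd3 (chr13:55329732-55329981, minus strand). Capitals mark motifs searched on both strands.
Mycn: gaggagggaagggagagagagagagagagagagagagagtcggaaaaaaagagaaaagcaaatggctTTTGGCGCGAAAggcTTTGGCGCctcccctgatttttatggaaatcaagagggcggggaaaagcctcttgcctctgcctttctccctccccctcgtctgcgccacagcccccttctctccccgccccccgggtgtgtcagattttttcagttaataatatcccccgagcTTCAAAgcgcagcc
Mxd4: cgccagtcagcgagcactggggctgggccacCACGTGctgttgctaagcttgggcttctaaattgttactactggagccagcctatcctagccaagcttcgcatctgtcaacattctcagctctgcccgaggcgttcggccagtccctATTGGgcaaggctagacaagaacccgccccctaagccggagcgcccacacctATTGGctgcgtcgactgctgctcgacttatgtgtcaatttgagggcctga
Mnt: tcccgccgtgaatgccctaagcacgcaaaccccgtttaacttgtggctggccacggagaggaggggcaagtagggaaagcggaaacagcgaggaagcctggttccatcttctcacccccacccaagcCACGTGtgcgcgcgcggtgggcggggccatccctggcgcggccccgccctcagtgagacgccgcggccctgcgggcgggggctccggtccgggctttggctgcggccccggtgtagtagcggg
Mxd3: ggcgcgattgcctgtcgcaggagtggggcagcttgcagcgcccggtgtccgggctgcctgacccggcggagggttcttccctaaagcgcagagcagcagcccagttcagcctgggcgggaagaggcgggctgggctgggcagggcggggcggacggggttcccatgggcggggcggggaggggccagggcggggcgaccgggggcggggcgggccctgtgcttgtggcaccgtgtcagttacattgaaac
The motifs were CACGTG, the E-box that Max pairs bind, the E2F forms TTTGGCGC and TTTCGCGC, the CCAAT box, and TTTGAA, an element of genes of late cycle phases. Entries were found for 7 of the 8 members, all but Myc. The E-box was present once in the windows of Mxd4 and of Mnt, and in 6.02% of the 32851 RefSeq promoter windows of this length. The Mycn window held TTTGGCGC at 2 places, a motif of 0.417% of all windows. The first of these overlapped a TTTCGCGC on the opposite strand (0.256% of windows) in the letters GCGC. The Mycn window also held TTTGAA on the opposite strand (16.0% of windows), and the Mxd4 window held 2 CCAAT boxes on the opposite strand (33.8%). The windows of Mycl, Max, Mxd3 and Mxi1 held none of these letters, which says nothing about whether the factors act there.

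**Figure D1:**
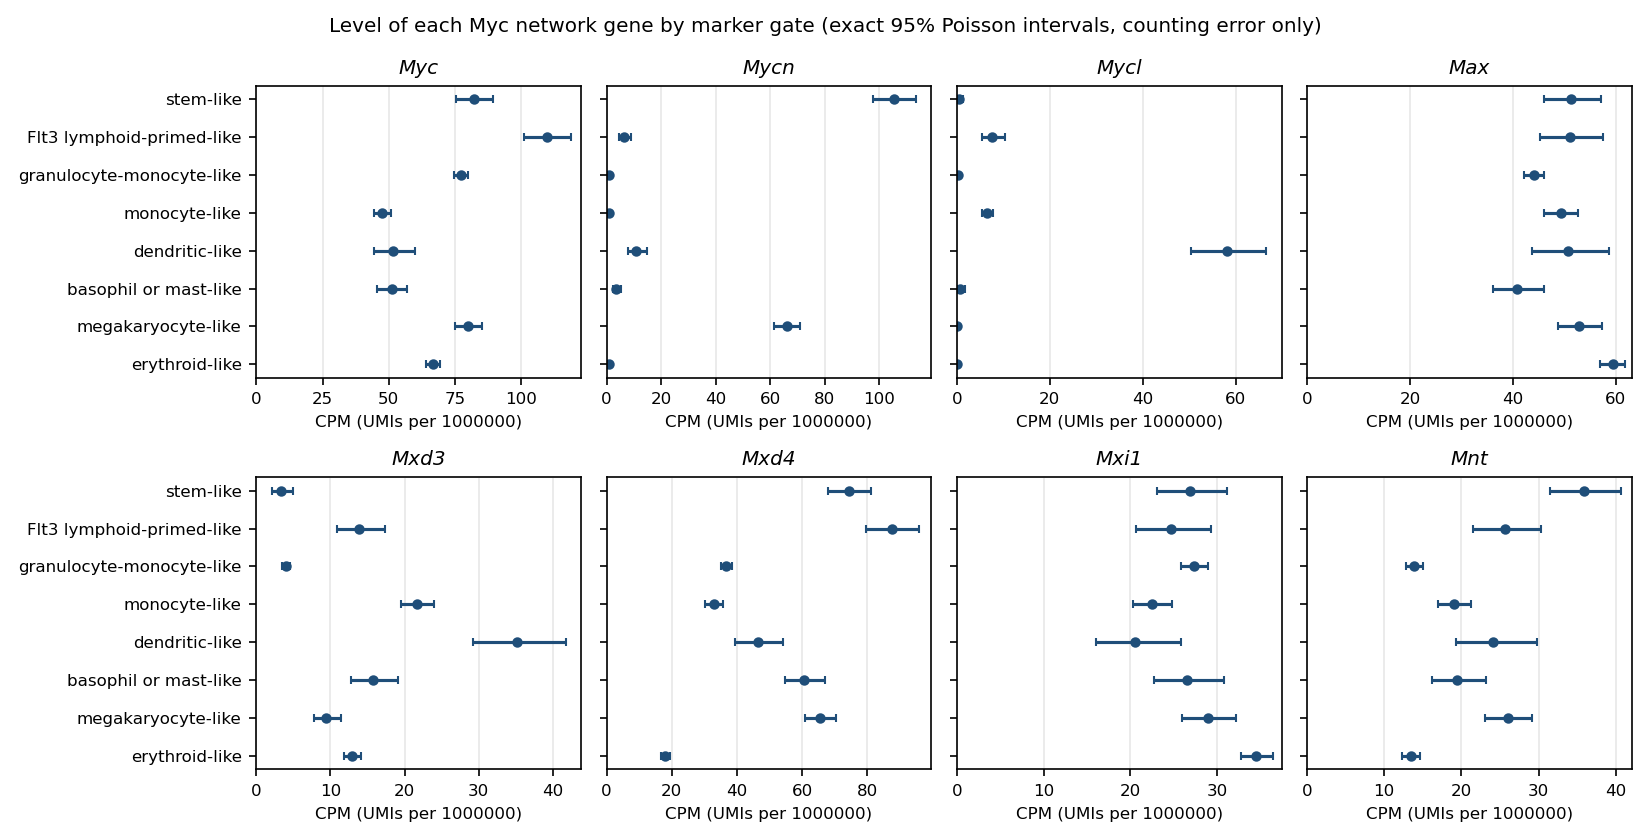
Level of each of the 8 genes (horizontal axis, CPM, from 0) in the 8 gates (vertical axis), with points for the pooled level of a gate and bars for the exact 95% Poisson interval. Mycn stood at 105 CPM in the stem-like and 66.1 in the megakaryocyte-like gate and at 10.95 or below elsewhere, Mycl stood at 58.1 in the dendritic-like gate, and Max ranged only from 40.9 to 59.4.

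Myc, the most abundant member with 11570 UMIs, was present in every gate, as the plot of levels by gate shows. Its level was highest in the Flt3 lymphoid-primed-like gate, at 110 CPM. The stem-like (82.0), megakaryocyte-like (79.9) and granulocyte-monocyte (77.1) gates followed, and neighbours among these 3 did not differ beyond counting error. The erythroid-like gate was at 66.6 CPM. The dendritic-like (51.7), basophil or mast-like (51.1) and monocyte-like (47.6) gates were the lowest and did not differ between neighbours, and the highest gate was 2.30-fold (2.07 to 2.56) above the lowest. After thinning of all cells to the same depth, 27.5% of stem-like cells had a Myc UMI, against 17.0% of monocyte-like cells and 39.7% of Flt3 lymphoid-primed-like cells (40.6%, 44.2% and 66.3% before thinning).

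Mycn, the family member first known from neural tumours, was concentrated in 2 gates. Its level was 105 CPM in stem-like cells, and 66.1 CPM in megakaryocyte-like cells, which was lower by more than counting error (ratio of stem-like to megakaryocyte-like 1.59, 1.44 to 1.77), although UMIs per cell were 1.03 and 1.09. The next gates were dendritic-like at 10.95 CPM, Flt3 lymphoid-primed-like at 6.54 and basophil or mast-like at 3.55. Monocyte-like (1.05), erythroid-like (1.01) and granulocyte-monocyte (0.948) gates were the lowest and did not differ from one another in sequence. These low gates had a Mycn UMI in 0.586%, 0.910% and 0.605% of thinned cells, at median depths of 19587, 32859 and 22085 UMIs before thinning, the lowest shares of any gate. In stem-like cells, whose median depth before thinning was 8428 UMIs, the share was 35.7% (32.1 to 39.4), and 49.7% before thinning. The stem-like and megakaryocyte-like gates held 34.8% and 37.4% of all Mycn UMIs.

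Mycl, the third member of the Myc family, followed neither pattern. The dendritic-like gate stood at 58.1 CPM and held 52.9% of the 391 Mycl UMIs, at a level 7.59-fold (5.41 to 10.9) above the next gate. Flt3 lymphoid-primed-like (7.66 CPM) and monocyte-like (6.51 CPM) cells came next and did not differ beyond counting error. Each of the remaining gates was below 1 CPM. In the megakaryocyte-like gate there were 0 Mycl UMIs of 11475914, where 3 UMIs would have given 0.261 CPM and the exact upper limit is 0.321 CPM. A Mycl UMI was found in 26.5% of dendritic-like cells after thinning (42.5% before, at a median of 11491 UMIs), against 0.146% of stem-like cells (0.439% before). Doublet calls made up 7.32% of dendritic-like cells, against 3.47% of all filtered cells.

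Max, the common partner, was nearly level across gates. It ran from 59.4 CPM in the erythroid-like gate to 40.9 in the basophil or mast-like gate, a span of 1.45-fold (1.28 to 1.66). In the stem-like gate Max stood at 51.4 CPM, and its ratio to the other gated cells was 1.02 (0.912 to 1.14), but 1.17 (1.03 to 1.33) under a stricter cell filter and 1.14 (1.02 to 1.28) with Leiden clusters. Counted per cell, Max was at 0.503 UMIs in stem-like and 1.11 in other gated cells. Mxi1, an antagonist of the Mad family, was also even, from 34.5 CPM in the erythroid-like to 20.5 in the dendritic-like gate. Its ratio of stem-like to other gated cells was 0.937 (0.803 to 1.09), but 0.774 (0.626 to 0.947) under the stricter cell filter. Of the 7 neighbouring pairs of gates in the order of Mxi1, only the step from erythroid-like to megakaryocyte-like exceeded counting error.

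The other antagonists each had an order of their own. Mxd4, a Mad family repressor, was highest in the Flt3 lymphoid-primed-like (87.4 CPM) and stem-like (74.2 CPM) gates and lowest in the erythroid-like gate (18.0 CPM), with 4.87-fold (4.32 to 5.48) between the ends. Mnt, an antagonist expressed in many tissues, was highest in stem-like cells at 35.8 CPM, 1.38-fold (1.16 to 1.64) above the next gate, megakaryocyte-like at 26.0 CPM (0.351 and 0.427 UMIs per cell). The granulocyte-monocyte (13.9 CPM) and erythroid-like (13.5 CPM) gates were the lowest for Mnt and did not differ. Mxd3, a Mad protein known from dividing cells, was highest in the dendritic-like (35.1 CPM) and monocyte-like (21.6 CPM) gates and lowest in the granulocyte-monocyte (3.97 CPM) and stem-like (3.29 CPM) gates, and these 2 did not differ.

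Stem-like cells were then compared with the cells of all other gates together. Mycn was 14.1-fold higher in stem-like cells (105 against 7.46 CPM, interval of the ratio 12.8 to 15.6). Mnt was 2.16-fold (1.88 to 2.47) and Mxd4 1.995-fold (1.82 to 2.19) higher in CPM. Stem-like cells had fewer UMIs in all, and counted per cell Mnt was at 0.351 UMIs in stem-like and 0.365 in other gated cells, Mxd4 at 0.727 and 0.820, and Myc at 0.803 and 1.53. Mycn was higher per cell as well, at 1.03 against 0.164 UMIs. Mxd3 was lower, at a ratio of 0.289 (0.181 to 0.439), which went to 0.143 with a stricter gate, 0.149 with thinned UMIs and 0.0148 (0.000375 to 0.0827) with Leiden clusters, as was Mycl, at 0.153 (0.0315 to 0.452) from 3 UMIs in stem-like cells. Myc was at 1.18 (1.08 to 1.29), but the interval held 1 in 4 alternatives: without doublet calls (ratio 1.08), with a stricter gate, with Leiden clusters and with thinned UMIs (1.10 to 1.11). In this comparison 39% of the 13272 genes with at least 50 UMIs were higher in stem-like cells by 1.5-fold or more and 18.8% were lower, beside 3 of the 8 members higher and 2 lower, and the median ratio over all these genes was 1.24.

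Since most stem-like cells were in the low tertile, the same ratios were taken among low-tertile cells alone. Mycn remained higher in stem-like cells, at 120 against 21.5 CPM, or 5.58-fold (4.95 to 6.30). Mnt was at 1.71 (1.45 to 2.03) and Mxd4 at 1.16 (1.04 to 1.29) in CPM, with 0.331 and 0.332 Mnt UMIs and 0.719 and 1.07 Mxd4 UMIs per stem-like and other cell. Myc turned, and was lower in stem-like than in other low-tertile cells, at 78.5 against 96.9 CPM (ratio 0.810, 0.727 to 0.900). Past 1.5-fold were 2 members higher, Mycn and Mnt, and 1 lower, Mycl, of the 7 with enough UMIs, beside 34.2% of all genes higher and 14.8% lower.

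Against the Flt3 lymphoid-primed-like gate, the nearest gate on the lymphoid side, Mycn was 16.1-fold (11.5 to 23.3) higher in stem-like cells. Mxd3 was at a ratio of 0.238 (0.141 to 0.387). Mxd4 (0.849, 0.747 to 0.966) and Myc (0.748, 0.665 to 0.842) were lower in stem-like cells by less than 1.5-fold, and Mnt was higher in CPM, at 1.40 (1.13 to 1.74), but not per cell (0.351 and 0.439 UMIs). In the same comparison 28.2% of 10617 genes were higher by 1.5-fold and 12.3% lower, with 1 member higher and 1 lower of the 7 with enough UMIs.

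**Figure D2:**
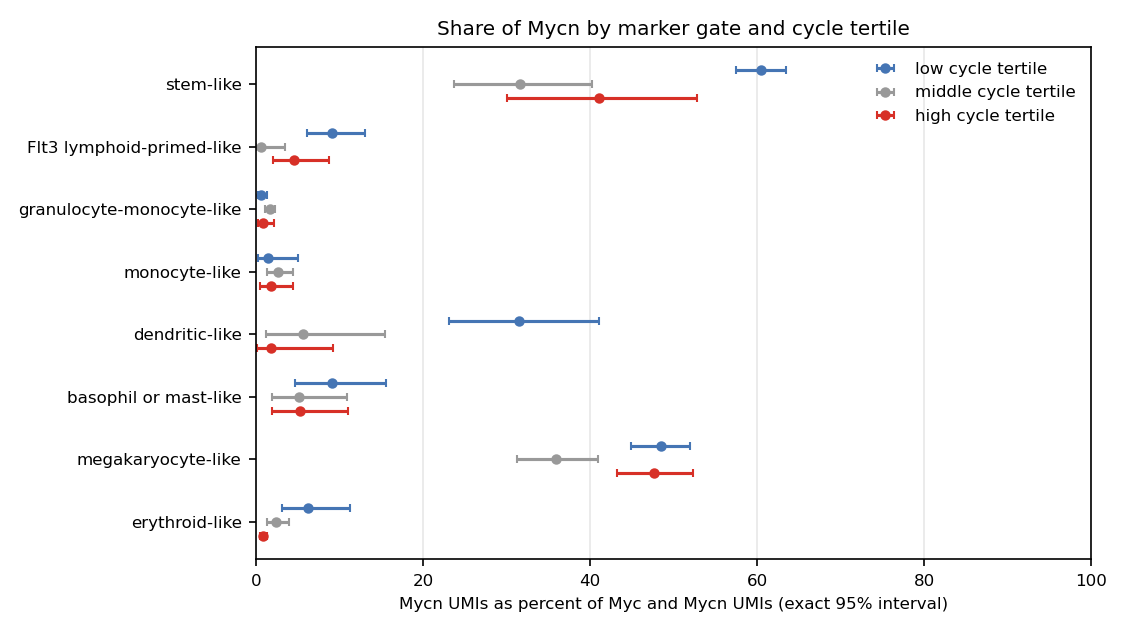
Mycn UMIs as a percent of the Myc and Mycn UMIs of a gate (horizontal axis, 0 to 100) for the low, middle and high cycle tertile of the 8 gates (vertical axis), with exact 95% binomial intervals. The stem-like low tertile stood at 60.5% and the megakaryocyte-like low and high tertiles at 48.4% and 47.7%, and all tertiles of the granulocyte-monocyte and monocyte-like gates were below 3%.

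The use of Myc and Mycn was compared as the share of Mycn in their joint UMIs. Stem-like cells had 706 Mycn and 549 Myc UMIs, a Mycn share of 56.3% (53.5 to 59.0), so that Mycn transcripts outnumbered those of Myc. Megakaryocyte-like cells were at 45.3% (42.9 to 47.7). Dendritic-like cells were at 17.5% (12.7 to 23.1), and the other gates lay between 6.50% in basophil or mast-like and 1.22% in granulocyte-monocyte cells. In the plot of Mycn shares, the stem-like and megakaryocyte-like gates stood apart from the others in every tertile with the exception of the dendritic-like low tertile.

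Within the stem-like gate, the Mycn share was 60.5% (57.4 to 63.4) in the low tertile, 31.5% (23.7 to 40.3) in the middle and 41.0% (30.0 to 52.7) in the high tertile. The middle and high tertiles held only 50 and 36 cells, and their intervals overlapped. In megakaryocyte-like cells the share was 48.4% in the low, 35.9% in the middle and 47.7% in the high tertile. The dendritic-like gate moved most, from 31.5% (23.0 to 41.0) in the low to 1.72% (0.0436 to 9.24) in the high tertile, where 1 of 58 UMIs was Mycn. The mean z of the stem markers in dendritic-like cells was also higher in the low than in the high tertile (-0.0126 against -0.234), and its part in the Mycn share was not tested.

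UMIs of both genes were found in the same cell at times. At 5000 UMIs per cell, 26.3% of stem-like cells had a Mycn but no Myc UMI, 18.1% had Myc alone, 9.36% had both and 46.2% had neither. In megakaryocyte-like cells 18.3% had Mycn alone, 21.3% Myc alone and 9.31% both. In granulocyte-monocyte cells 30.5% had Myc alone and 0.453% Mycn alone. A cell with neither UMI may still express both genes, because few of its transcripts were captured. RNA from outside the cell was not measured, and no expected share of cells with both was computed.

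Mycn varied inside its 2 gates. Stem-like cells with a UMI of Vwf, a gene of platelet-biased stem cells and megakaryocytes, had 134 CPM of Mycn (119 to 151), and those without had 92.6 (84.1 to 102). Myc went the other way, at 71.8 (60.7 to 84.3) and 86.6 (78.3 to 95.5) CPM, with intervals that overlapped. Megakaryocyte-like cells with a mean z of the stem markers of at least 0 had 78.4 CPM of Mycn (71.5 to 85.6), against 51.7 (45.7 to 58.2) in those below 0. The Mycn level of the latter was still above that of every other gate but the stem-like. With a UMI of the platelet gene Pf4, megakaryocyte-like cells had 65.5 CPM of Mycn, and without it 70.8 (57.2 to 86.5).

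**Figure D3:**
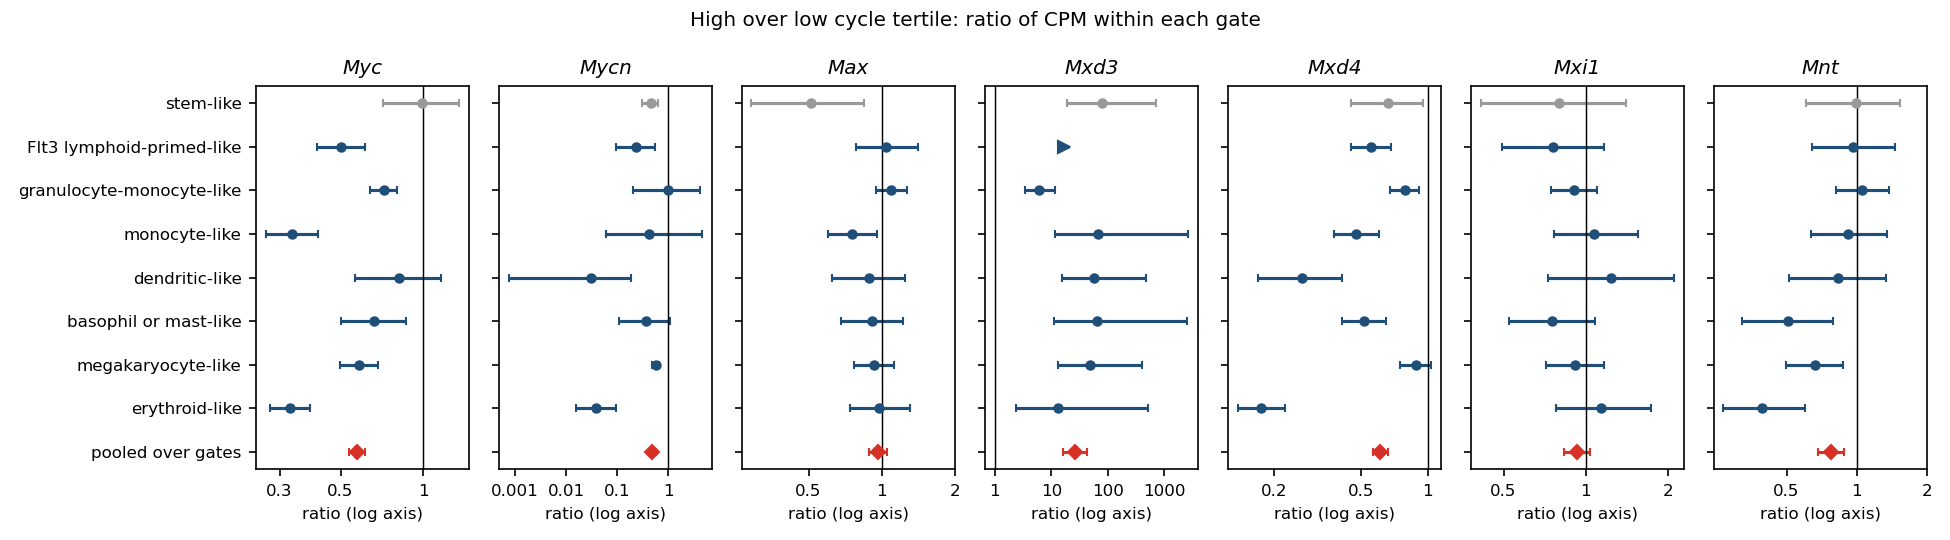
Ratio of the level in the high to that in the low cycle tertile (horizontal axes, log scale, a range for each gene) within each gate, with 95% intervals, for 7 members. Grey marks the stem-like gate, which had too few high-tertile cells for the pooled ratio, and red the ratio pooled over the other 7 gates. The triangle is a ratio of 16.8 with 3 UMIs put in place of 0. Mxd3 lay right of 1 in every gate, and Myc and Mxd4 lay left of 1 in the 7 pooled gates.

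High and low tertiles were compared within gates, over the 7 gates with at least 50 cells in both. Mxd3 was higher in the high tertile, Myc, Mycn and Mxd4 were lower, and Max and Mxi1 did not differ beyond counting error. Past 1.5-fold were 1 member higher and 3 lower, beside 7.54% of 12330 genes higher and 9.63% lower. The median ratio over all genes was 0.998.

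Mxd3 had 1223 UMIs in high-tertile and 22 in low-tertile cells, or 21.4 against 1.01 CPM, and the pooled ratio was 26.2 (16.3 to 42.1). The ratio was above 1 beyond counting error in all 7 gates. In Flt3 lymphoid-primed-like cells Mxd3 had 65 UMIs in the high and 0 in the low tertile, at least 16.8-fold higher against a floor of 3 UMIs in the group. In dendritic-like cells it was at 79.4 CPM in the high tertile from 105 UMIs, against 2 UMIs in the low tertile (ratio 56.8, 15.3 to 475). The granulocyte-monocyte gate had the smallest ratio, at 6.09 (3.43 to 11.5), from 62 and 15 UMIs. In the 36 high-tertile stem-like cells there were 18 Mxd3 UMIs, or 30.4 CPM, against 2 UMIs in 598 low-tertile cells (ratio 80.3, 19.2 to 714). Among low-tertile cells the ratio of stem-like to other cells was 0.370, with an interval from 0.0423 to 1.496. When the tertiles were taken from the 43 S genes alone, the Mxd3 ratio was 0.996 (0.851 to 1.17), while the 54 G2/M genes alone gave 29.4 (18.1 to 47.6).

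Myc was at 54.1 CPM in high-tertile and 97.9 CPM in low-tertile cells, with a pooled ratio of 0.573 (0.537 to 0.612). It was lower in the high tertile beyond counting error in 6 of the 7 gates. In erythroid-like cells it stood at 57.3 against 175 CPM (ratio 0.327, 0.276 to 0.389), and in monocyte-like cells at 27.6 against 83.2 CPM (0.332, 0.268 to 0.413). Dendritic-like cells were the exception, at 0.812 (0.566 to 1.16), and stem-like cells, outside the pooled ratio, were at 0.992 (0.715 to 1.35). Per cell, Myc was higher in the high tertile of stem-like cells, at 1.28 UMIs against 0.692 in the low. High-tertile cells held more UMIs in each gate, for example a median of 34018 against 11412 in erythroid-like cells, whose mean z of erythroid markers was also higher (1.66 against 0.853). Counted per cell, Myc fell in monocyte-like cells from 1.37 to 0.583 UMIs and in erythroid-like cells from 2.50 to 1.92, but was equal in granulocyte-monocyte cells (1.93 and 1.92) and higher in dendritic-like (0.528 and 0.640) and basophil or mast-like cells (0.649 and 0.694). The part of depth in the Myc ratio was not tested beyond thinning, at which it was 0.507. With each gate split at the median of its own marker z, an alternative added after seeing the data, the ratio was 0.584 (0.544 to 0.627).

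Mycn was at a pooled ratio of 0.490 (0.422 to 0.570), lower in the high tertile beyond counting error in 4 of 7 gates. Most of its UMIs in this comparison came from megakaryocyte-like cells, at 51.4 CPM in the high and 90.4 in the low tertile (0.569, 0.481 to 0.671). In stem-like cells it was at 54.1 against 120 CPM (0.451, 0.306 to 0.644). Erythroid-like cells had 14 Mycn UMIs in 940 high-tertile and 10 in 60 low-tertile cells, a ratio of 0.0379 (0.0157 to 0.0955), so that the low level of the gate as a whole was not shared by its low tertile, at 11.7 CPM (5.61 to 21.5). The mean z of stem markers was higher in the low tertile of megakaryocyte-like cells (0.170 against 0.0344), and its part in the Mycn ratio was not tested.

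Mxd4 was at 28.4 against 69.8 CPM, with a pooled ratio of 0.610 (0.566 to 0.659), and was lower in the high tertile beyond counting error in 6 of 7 gates. Erythroid-like cells had the lowest ratio, with 15.8 CPM in the high and 90.0 in the low tertile (0.175, 0.138 to 0.226). Dendritic-like cells followed at 0.268 (0.171 to 0.409). The megakaryocyte-like gate was at 0.884 (0.752 to 1.04), and its UMIs per cell were higher in the high tertile (1.06 and 1.26), as they were in granulocyte-monocyte cells (0.972 and 1.06), whose ratio in CPM was 0.788 (0.676 to 0.917). Mxd4 and Mxd3 ran in opposite directions with the score of all 97 genes, in CPM, but not with S genes alone.

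Mnt was at a pooled ratio of 0.778 (0.684 to 0.883) and was lower beyond counting error in 3 of 7 gates, the basophil or mast-like (0.507), megakaryocyte-like (0.660) and erythroid-like (0.392). Its pooled interval held 1 with Leiden clusters (0.895) and with S genes alone (0.978). Mxi1 was at 0.930 (0.831 to 1.04) and did not differ beyond counting error in any of the 7 gates, though between the outer quartiles of the score it was at 0.844 (0.721 to 0.989). With mitochondrial, ribosomal protein and haemoglobin UMIs out of the total, Mxi1 was at 0.885 (0.791 to 0.991). Max was at 0.966 (0.889 to 1.05) and was lower in the monocyte-like gate only (0.754, 0.601 to 0.953). In stem-like cells Max was at 27.1 CPM in the high against 52.9 in the low tertile, from 16 and 279 UMIs (0.512, 0.289 to 0.846). Mycl was at 0.834 (0.656 to 1.06), a ratio that turned to 1.88 (1.16 to 3.04) with Leiden clusters and had an interval wholly below 1 in 5 other alternatives, with values from 0.655 to 0.785. By gate it stood at 51.5 against 81.1 CPM in dendritic-like cells (0.635, 0.463 to 0.863) and 10.4 against 3.51 CPM in Flt3 lymphoid-primed-like cells (2.97, 1.18 to 8.93).

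**Figure D4:**
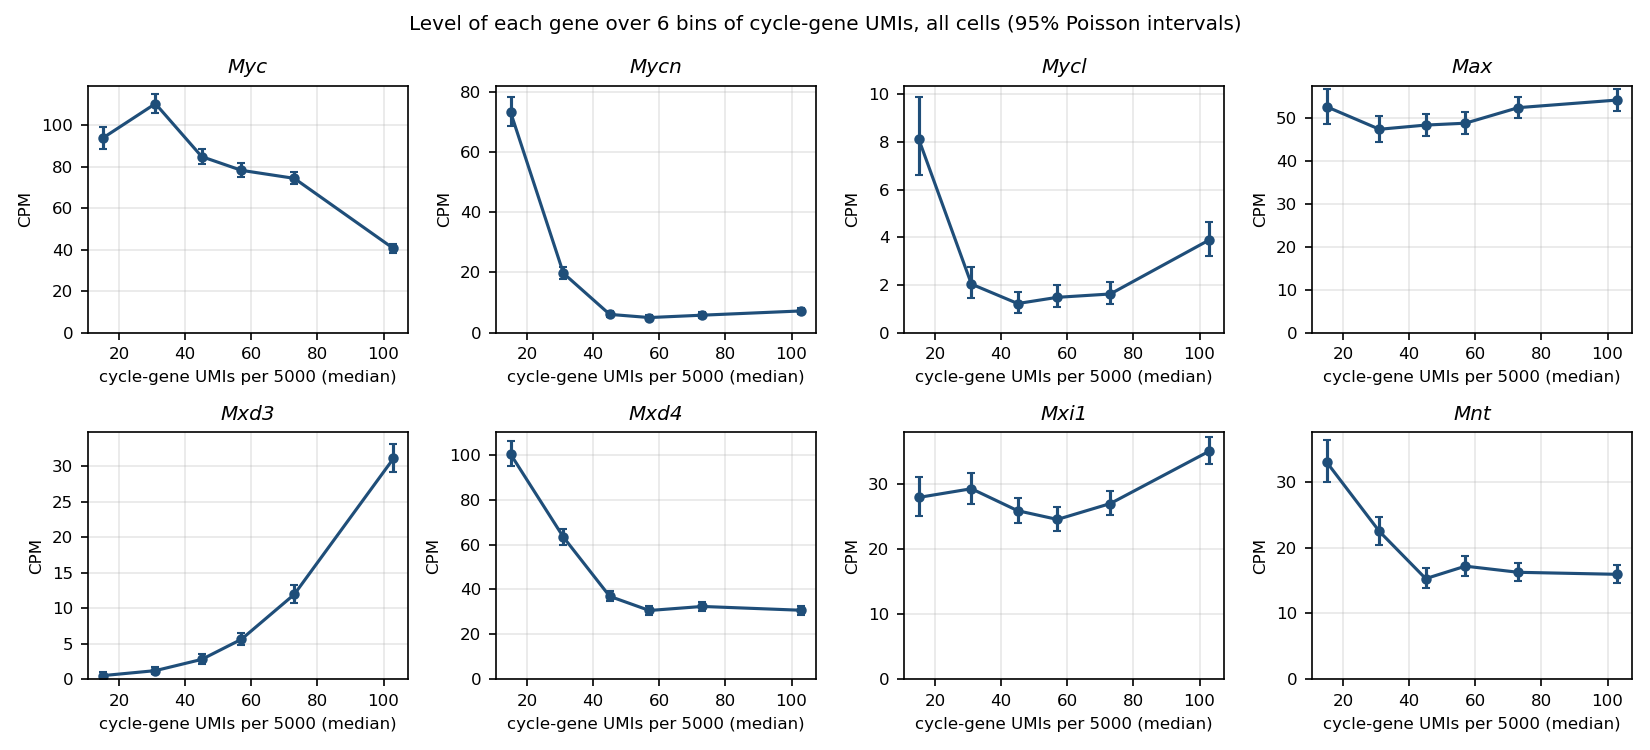
Level of each gene (vertical axes, CPM, from 0) in 6 bins of all 7546 cells ordered by cycle-gene UMIs (horizontal axes, median per thinned cell of 5000 UMIs), with 95% Poisson intervals. Mxd3 rose from 0.484 to 31.1 CPM over the bins, Mxd4 was at 100 CPM in the first and 30.7 in the last, and Myc peaked at 110 in the second and was lowest, at 40.6, in the last.

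The steps along the cycle score differed between members, as the plot over 6 bins of cells shows, in which gates are not held apart. Mycn went from 73.4 CPM in the first bin to 19.7 in the second and 6.06 in the third, and lay between 5.001 and 7.21 from there. Myc rose from 93.7 to 110 CPM between the first and second bins, was between 84.9 and 74.4 in the next 3, and was 40.6 in the last. Mxd3 was higher in each bin than in the one before. Mnt went from 33.0 to 15.3 CPM within the first 3 bins and stayed between 15.3 and 17.2, whereas Mxi1 had its highest level, 35.1 CPM, in the last bin.

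Cells of the high tertile were also divided into those leaning to G2/M and those leaning to S, over the 5 gates with at least 50 of each. Mxd4 was higher in G2/M-leaning cells, at 38.2 against 18.7 CPM and a ratio pooled over gates of 1.55 (1.37 to 1.74). Mxd3 was higher in G2/M-leaning cells as well, at 25.5 against 15.5 CPM (1.42, 1.24 to 1.63), as was Myc, at 56.6 against 51.3 CPM (1.21, 1.12 to 1.31). For Mycn the interval included 1 (1.24, 0.961 to 1.61), as it did for Mycl, Max, Mxi1 and Mnt. Mxd4 was the member past 1.5-fold, beside 3.91% of 11482 genes higher and 3.18% lower.

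The balance of antagonists to Myc proteins was taken as the share of Mxd3, Mxd4, Mxi1 and Mnt in the UMIs of these 4 and of Myc, Mycn and Mycl. Over all tertiles it was lowest in stem-like cells, at 42.7% (40.7 to 44.8), and next in megakaryocyte-like cells, at 47.1% (45.3 to 48.8). It was highest in basophil or mast-like cells, at 68.8% (66.1 to 71.5), and monocyte-like cells, at 63.5% (61.6 to 65.4). Among low-tertile cells stem-like (42.5%, 40.2 to 44.8) and megakaryocyte-like cells (42.6%, 40.0 to 45.3) were alike. The low-tertile intervals of dendritic-like (45.2%) and erythroid-like cells (45.4%) overlapped theirs. In monocyte-like cells the share was 53.7% (48.2 to 59.1) in the low and 75.7% (73.2 to 78.1) in the high tertile. It was also higher in the high tertile in dendritic-like (45.2% and 61.2%), megakaryocyte-like (42.6% and 56.2%) and erythroid-like cells (45.4% and 58.0%). The same held for Flt3 lymphoid-primed-like (51.9% and 62.0%) and granulocyte-monocyte cells (48.5% and 55.2%). In stem-like cells, at 42.5% and 52.1%, the intervals overlapped. Basophil or mast-like cells did not move beyond counting error, at 70.3% (65.6 to 74.7) and 74.4% (70.1 to 78.4). A transcript share does not give the amounts of protein.

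Other factors of the wider network were read from a list of 5, Mxd1, Mga, Mlx, Mlxip and Mlxipl, of which 4 had enough UMIs. In stem-like against other gated cells 2 were higher by 1.5-fold and 1 lower, with a median ratio of 1.70, beside 39% and 18.8% of all genes and their median of 1.24. Mga, a large Max partner of a repressive Polycomb complex, was at 114 against 56.0 CPM (2.04, 1.89 to 2.20), and Mlx, the partner of the glucose-sensing Mondo proteins, was at 20.8 against 36.0 CPM (0.576, 0.483 to 0.683). None of the 4 passed 1.5-fold between the cycle tertiles, beside 7.54% of all genes higher and 9.63% lower.

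Of 11 cofactors and turnover factors of Myc, 2 were higher in stem-like than in other gated cells by 1.5-fold, Trrap (1.68, 1.504 to 1.87), a scaffold of histone acetyltransferases, and Fbxw7 (1.61, 1.40 to 1.85), which marks Myc protein for degradation. The helicase Ruvbl2 was lower (0.593, 0.536 to 0.655). These counts compare with 39% of all genes higher and 18.8% lower, so that the share of cofactors higher was below that of all genes. Sin3a, the corepressor that Mad proteins recruit, was at 1.32 (1.16 to 1.48) and Hdac2 at 0.838 (0.761 to 0.921). Their paralogues Sin3b, at 1.08 (1.005 to 1.16), and Hdac1, at 0.948 (0.876 to 1.03), were nearer to equal. Between the cycle tertiles none of the 11 passed 1.5-fold, beside 7.54% of all genes higher and 9.63% lower.

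The 15 genes of a short list of Myc targets had 11 members lower in stem-like cells by 1.5-fold and 0 higher, with a median ratio of 0.596, beside 18.8% of all genes lower and their median of 1.24. Srm, an enzyme of spermidine synthesis, was at 72.6 against 192 CPM (0.378, 0.344 to 0.413), and Odc1, of the same pathway, at 70.9 against 165 CPM (0.430, 0.391 to 0.471). The nucleolar protein gene Ncl was at 0.599 (0.584 to 0.615) and Ldha, of lactate metabolism, at 0.867 (0.835 to 0.900). Among low-tertile cells alone 6 of the 15 were lower by 1.5-fold, with a median of 0.724, beside 14.8% of all genes lower and their median of 1.21. The joint level of Myc, Mycn and Mycl was highest, in CPM, in stem-like cells, at 188 (178 to 199), where the summed targets stood at 4092 CPM. It was 67.7 CPM in erythroid-like cells, with targets at 8802 CPM. Basophil or mast-like cells had the lowest joint level, 55.4 CPM, and targets at 3941 CPM. Among low-tertile cells the joint level was 199 CPM in stem-like, 187 in megakaryocyte-like and 187 (159 to 218) in erythroid-like cells. Their targets stood at 3831, 5289 and 7815 CPM. Between the cycle tertiles 0 of the 15 passed 1.5-fold in either direction, with a median of 1.03. Of all genes, 7.54% were higher and 9.63% lower, with a median of 0.998. Myc was at 0.573.

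Genes with the most similar order over the 8 gates were ranked by the Pearson correlation of log2(CPM + 10) among 11386 genes that were no member, gate marker or cycle gene. For Mycn these were F11r, Gm16140, Pnck, Esam and Cavin3, with r from 0.999 to 0.994. F11r and Esam, adhesion proteins of cell junctions, reached 42.7 and 88.4 CPM, in stem-like cells. For Myc they were Pld6, Scrn2, Ppie, Adgrg7 and Bcl7c, with r from 0.931 to 0.893, and levels that spanned less, for example from 62.8 to 82.4 CPM for Ppie. The 8 points are gates of the same library, and the values describe likeness over these gates only.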

How the data were processed

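Single-cell RNA of 1 library was counted. The deposited values are raw UMI counts, 1 whole number for each gene and barcode, which the authors obtained with Cell Ranger 6.0.2 on mm10 from a 10x 3′ library. The label of the sample describes a kit for bulk RNA, but the values have the form of single-cell counts. The members and the gene lists were chosen with earlier results of these data known.

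As in the study, barcodes were kept between 1000 and 50000 UMIs and between 1000 and 6500 genes, if less than 7% of their UMIs were mitochondrial. Scrublet (scanpy 1.11.5, expected rate 6%) called 265 cells (3.47%) doublets, which were kept and were left out in an alternative. Each cell was thinned to 5000 UMIs (99 shallower cells were left out), and log-normalised thinned counts were turned into z values limited to 3. A cell took the gate whose markers (13 lists, 101 genes) had the highest mean z, if at least 0.5, with at least 2 markers detected. Cycle tertiles came from 43 S and 54 G2/M genes.

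Levels are pooled UMIs of all cells of a group per 1000000, with exact Poisson intervals. Ratios of groups have exact conditional binomial intervals, and ratios within gates are Mantel-Haenszel rate ratios with Greenland-Robins intervals (scipy 1.17.1). Shares have Clopper-Pearson intervals. All are at 95%. The background counts genes with at least 50 UMIs in the groups compared and a ratio past 1.5 either way. Named genes were the 8 members, list genes with the highest and lowest ratios and some between them, and the 5 genes most like Myc and most like Mycn over gates, with at least 200 UMIs. On simulated counts with 200 genes changed by 3-fold, 95.9% of 13272 intervals of the stem-like ratio and 95.1% of 12330 of the cycle ratio held the true fold. These were Poisson counts of pooled groups, the model that the intervals assume. They check the calculation only, and hold no spread between cells or libraries. Promoters are from RefSeq (GRCm38.p6) and gene positions from GENCODE on GRCm38, whose release may differ from that behind the counts. Other filters, gates, depths and cycle scores, 12 in all and 1 added after seeing the data, were tried.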

Additional observations from a re-analysis of the deposited data

Results flagged for a closer look

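Mycl differed in direction between gates under the same contrast. In Flt3 lymphoid-primed-like cells its ratio of high to low cycle tertile was 2.97 (1.18 to 8.93, from 23 and 6 UMIs), and in dendritic-like cells it was 0.635 (0.463 to 0.863, from 68 and 116 UMIs). The intervals lie on opposite sides of 1, and the difference between the gates was not tested.

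The 988 cells without a gate, which entered no comparison, had a Myc level of 132 CPM (126 to 137), above that of every gate of at least 50 cells. Their Mycn level was 23.2 CPM (20.8 to 25.7), below that of the stem-like and megakaryocyte-like gates and above the others. These cells had a median of 14159 UMIs, and 44.7% were in the low cycle tertile. Genes that most set them apart were Ctla2a, Spns2 and Slc22a3, with Sox4 and Cd27 also in the top 10.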

How the results depend on the processing

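With 1 library, differences between mice or preparations were not measured, and intervals cover counting error only. No paired analysis was possible because there is 1 sample, with no replicate to leave out. Of 79 values of the main ratios and shares under alternatives, 60 moved by less than their interval, and of 106 values of the other member ratios 94 did. The Mycn ratio of stem-like to other gated cells was 11.6 in cells of 5000 or more UMIs with under 5% mitochondrial, 17.5 with a mean marker z of at least 1 and 10.2 with thinned UMIs. The Mycn share in stem-like cells was 52.3%, 64.7% and 60.0% under the same settings, and 63.7% with Leiden clusters in place of gates. Between cycle tertiles, Leiden clusters gave 0.623 for Myc, 0.574 for Mycn and 0.759 for Mxd4. Thinned UMIs gave 0.507 for Myc, 43.4 for Mxd3 and 0.522 for Mxd4. A mean marker z of at least 1 gave 0.635 for Myc, and the outer quartiles of cells gave 53.5 for Mxd3. With S genes alone the ratio was 0.865 for Myc, 0.472 for Mxd4 and 0.996 for Mxd3, which reversed its direction with an interval that held 1. With G2/M genes alone Mxd4 was at 0.746. The cause of these shifts was not tested. Strata of gate and of marker z above or below its median, added after seeing the data, moved no member's ratio beyond its interval.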
